A study of Mus musculus with 12 samples.

Results

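The proteasome genes of mouse gastrocnemius, the large muscle of the calf, were examined for their RNA levels in 12 heat-tested mice. They were taken as every gene whose symbol on the array begins with Psma, Psmb, Psmc, Psmd or Psme, except Psmb8 and Psmb9. The array carried 43 such genes on 77 probes, and 36 genes with 60 probes passed the detection filter, out of 9034 genes and 15570 probes tested in all. A probe passed when its detection p was under 0.05 on at least 6 of the 12 arrays, whichever label the mice had. Of the 36 genes, Psmc3ip, whose product acts in meiotic recombination, and Psme3ip1, a binding partner of the activator Psme3, share the prefix without encoding a part of the proteasome. The other 34 genes, with 57 tested probes, are described below.

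The proteasome degrades proteins that carry ubiquitin chains. Its core is a barrel of stacked rings, in which alpha subunits (Psma) form the gated outer rings and beta subunits (Psmb) form the inner rings that hold the catalytic sites. A regulatory cap binds the barrel: its ATPase subunits (Psmc) unfold the substrate and feed it into the core, and its non-ATPase subunits (Psmd) bind and remove ubiquitin. Activators (Psme) can take the place of the cap. In skeletal muscle this system breaks down myofibrillar and misfolded proteins, and it is best known for its role in atrophy.

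All mice were male C57BL/6J, 10 to 12 weeks old and 22 to 26 g in weight, and all had a telemetry transponder implanted. Each was exposed to heat in a chamber warmed to 39.5°C for at most 3 h, and muscle was taken about a day later. The labels call 6 mice heat tolerant (TOL) and 6 heat intolerant (INT), according to the core temperature they reached during that exposure, and a mouse is named here by its label and number. No group was left unheated, so levels before the heat test are not known. The titles and source names give these labels, but the description field names heat intolerance for every one of them.

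Each mouse had 1 Illumina MouseWG-6 v2 BeadChip array. The median signal was 71.5 to 74.0 and the number of detected probes 15179 to 17017. The array of TOL 11 had the lowest mean correlation with the other arrays, 0.9732. Markers of skeletal muscle were bright on every array, and the median level of the 7 markers was 13.27 to 13.53 in INT mice and 13.24 to 13.51 in TOL mice. Levels are background-corrected, quantile-normalised signals on the log2 scale. They can be compared between mice for 1 probe, but not between probes. A difference is the mean of the TOL mice minus the mean of the INT mice on that scale. In bulk muscle, fewer cells of a type and less RNA per cell cannot be told apart.

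The question of the comparison was whether proteasome transcripts differed between mice that tolerated the heat and mice that did not. None of the 34 genes passed the test between the labels (0 at an adjusted p under 0.05 by limma with Benjamini-Hochberg adjustment, where 0.542% of all genes tested passed). Over all genes, 0.0221% passed as higher and 0.52% as lower in TOL mice. The smallest adjusted p of a member was 0.488. Without adjustment, 1 of the 34 genes (2.94%) reached p of 0.05 in limma, against 8.41% of all genes (3.89% higher and 4.53% lower in TOL mice), and the methods' t-test also called 1. The gene was Psmc1, higher in TOL mice. All differences lay between -0.18 and 0.22, so none exceeded 1.2-fold in this fit, while 6.7% of all genes did. That bound depends on the fit. With an RMA-type background correction Psmd2 was at -0.47 and Psmd6 at 0.36, the mean of its probes put Psme4 at -0.38, and Psmb5 was at 0.30 without INT 9 and 0.29 without TOL 7. The 95% intervals of all 34 differences lay between -0.49 and 0.49, inside the 0.585 that corresponds to 1.5-fold, but 3 of them passed that size with the RMA-type correction, 1 with the authors' processed values and 1 with the mean of a gene's probes. TOL mice had the higher mean in 21 of the 34 genes (48.9% of all genes tested), with a median difference of 0.027 against -0.0034 over all genes. The sign of that median depended on single mice, since it was -0.0056 without TOL 5 and -0.0018 without INT 7. The labels overlapped in all 34 genes, while 0.708% of all genes had labels that did not overlap.

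**Figure D1:**
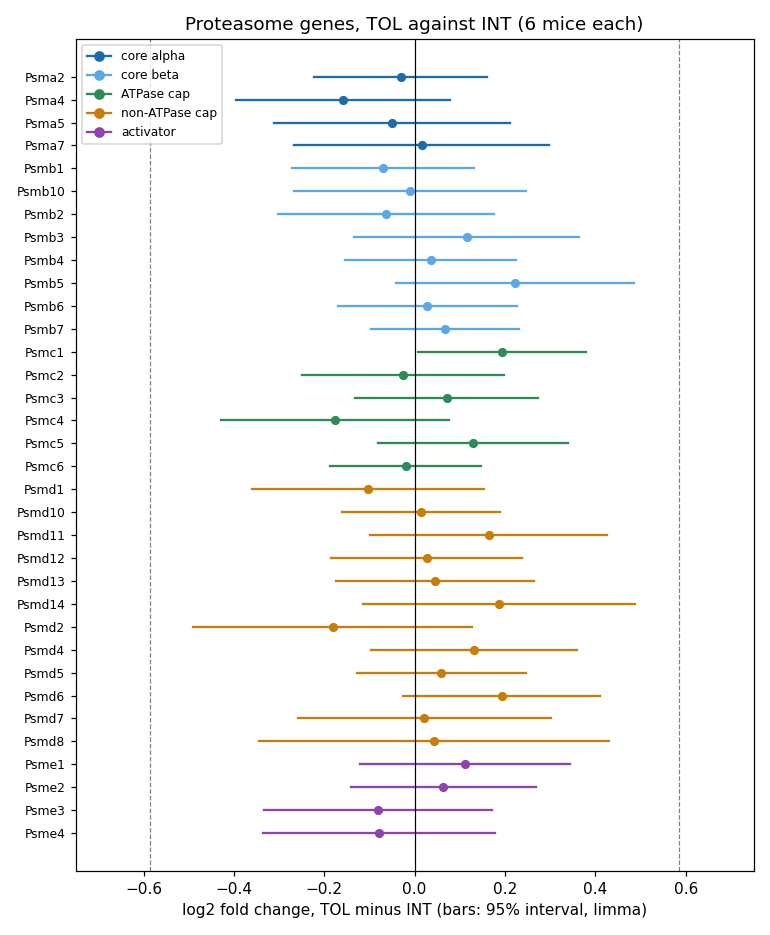
Difference between TOL and INT mice in log2 level (horizontal axis) for the 34 proteasome genes (rows, coloured by group). Points are means of 6 TOL mice minus means of 6 INT mice, bars are 95% intervals from limma and dashed lines mark 1.5-fold. Every bar lies between the dashed lines.

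Promoter sequences are shown for 4 core genes, because transcription factors that bind the first motif below are known to drive proteasome genes together. The windows come from RefSeq (GRCm38.p6), and 29 of the 34 genes had one, with Psmb1, Psmb2, Psmb7, Psmc3 and Psmd7 left without. Capitals mark the core of the antioxidant response element (TGACNNNGC), which Nfe2l1 and Nfe2l2 bind with small Maf proteins, and the CCAAT box (CCAAT), each searched on both strands. Each line gives the 250 bases before the annotated start, read 5′ to 3′ on the gene's strand. The 4 regions are chr14:54617996-54618245 (minus strand) for Psmb5, chr11:70525107-70525356 (plus) for Psmb6, chr13:14612992-14613241 (plus) for Psma2 and chr3:108256676-108256925 (plus) for Psma5.
Psmb5: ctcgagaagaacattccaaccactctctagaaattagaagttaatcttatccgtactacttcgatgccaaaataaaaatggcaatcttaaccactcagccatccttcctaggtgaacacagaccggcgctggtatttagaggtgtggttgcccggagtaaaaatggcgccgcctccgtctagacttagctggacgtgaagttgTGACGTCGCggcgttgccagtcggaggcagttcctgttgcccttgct
Psmb6: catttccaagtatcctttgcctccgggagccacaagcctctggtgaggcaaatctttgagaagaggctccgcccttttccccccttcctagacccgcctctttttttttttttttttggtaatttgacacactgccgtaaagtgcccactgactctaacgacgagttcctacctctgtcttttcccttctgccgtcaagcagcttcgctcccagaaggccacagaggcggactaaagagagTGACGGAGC
Psma2: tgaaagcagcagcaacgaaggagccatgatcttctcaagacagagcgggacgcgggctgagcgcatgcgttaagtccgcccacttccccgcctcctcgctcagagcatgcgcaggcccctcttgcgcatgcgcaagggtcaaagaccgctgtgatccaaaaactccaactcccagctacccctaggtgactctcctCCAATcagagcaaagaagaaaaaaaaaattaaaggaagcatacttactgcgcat
Psma5: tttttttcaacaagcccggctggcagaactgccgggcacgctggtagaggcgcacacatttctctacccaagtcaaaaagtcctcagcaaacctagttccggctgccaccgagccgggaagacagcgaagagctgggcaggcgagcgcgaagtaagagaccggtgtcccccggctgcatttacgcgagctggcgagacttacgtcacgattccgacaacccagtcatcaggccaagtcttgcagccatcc
The catalytic genes Psmb5 and Psmb6 hold an antioxidant response element core, which begins 47 and 9 bases before the start. Psma2 holds a CCAAT box 54 bases before its start, and Psma5 holds neither motif in this stretch. In windows of 300 bases that also take in the first 50 transcribed bases, the response element core occurred in 16.1% of 31 proteasome windows and in 12.4% of 32851 windows of all genes. The CCAAT box occurred in 29% against 37.4%, and a pair of heat shock element units (TTCNNGAA) in 6.45% against 8.52%. A match is a description of the letters and not evidence of binding.

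The alpha ring genes were measured in part. Of 8 on the array, 4 were tested, and the probes of Psma1, Psma3, Psma6 and the testis form Psma8 were detected on at most 1 array. Of the 4, 1 was higher and 3 were lower on average in TOL mice, with a median difference of -0.040. Psma4 ranged from 10.29 to 10.67 in INT mice (median 10.48) and from 10.02 to 10.80 in TOL mice (median 10.26). Its TOL values enclosed all the INT values, since TOL 5 was the highest of the 12 mice and 5 of 6 TOL mice lay below the INT mean. The difference was -0.16 (standard error 0.11, limma adjusted p = 0.698, permutation p = 0.216 from an exact, two-sided test over the mice). Psma5 ranged from 10.68 to 11.08 in INT mice (median 10.87) and from 10.47 to 11.32 in TOL mice (median 10.83). The spread within the TOL label was again the wider, and the difference was -0.05 (standard error 0.12, limma adjusted p = 0.935). Psma2 and Psma7 differed by -0.03 and 0.02. Without TOL 5 the median of the 4 genes was -0.12, and Psma4 then had a difference of -0.26 with an unadjusted p of 0.00995 and an adjusted p of 0.292 from limma. Without TOL 11 the median was 0.0097 and Psma4 was at -0.10.

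Of the beta ring genes, 8 of 9 were tested, the exception being Psmb11, the subunit of the thymus proteasome, which was detected on no array. In TOL mice 5 were higher and 3 lower on average, with a median difference of 0.032. Psmb5 encodes the chymotrypsin-like site. It ranged from 7.69 to 8.28 in INT mice (median 7.90) and from 7.79 to 8.41 in TOL mice (median 8.19). The ranges overlapped over most of their length, although 5 of 6 TOL mice lay above the INT mean. Its difference of 0.22 was the largest of the 34 in the direction of TOL (standard error 0.13, limma adjusted p = 0.605, exact permutation p = 0.126). Psmb6, the caspase-like subunit, ranged from 10.23 to 10.78 in INT mice (median 10.48) and from 10.36 to 10.76 in TOL mice (median 10.51). On this probe the labels could not be told apart, with a difference of 0.03 (standard error 0.09, limma adjusted p = 0.954). The other tested probe of Psmb6 differed by 0.15 (standard error 0.08, limma adjusted p = 0.576). Its r with the first probe was 0.223.

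Psmb7, the trypsin-like subunit, had 4 tested probes. The brightest ranged from 10.79 to 11.12 in INT mice (median 10.997) and from 10.88 to 11.15 in TOL mice (median 11.09), a difference of 0.07 (standard error 0.08, limma adjusted p = 0.829). A further pair of probes gave larger differences, of 0.27 and 0.23 (limma adjusted p = 0.311 and 0.405), and on both all 6 TOL mice lay above the INT mean. The remaining probe, the dimmest of the 4, differed by 0.08 (limma adjusted p = 0.897). Psmb10 is the immunoproteasome counterpart of Psmb7, which the chosen symbols kept. It ranged from 7.28 to 7.91 in INT mice (median 7.61) and from 7.28 to 7.87 in TOL mice (median 7.57), nearly the same range, and differed by -0.01 (standard error 0.12, limma adjusted p = 0.990). The other immunoproteasome genes, Psmb8 and Psmb9, were left out by the choice of symbols. They differed by 0.10 and 0.19 (limma adjusted p = 0.910 and 0.721). Of 11 listed interferon-stimulated genes, Psmb8 and Psmb9 included, 8 were tested. In TOL mice 7 of the 8 were higher on average, where 48.9% of all genes were. The antiviral membrane protein gene Bst2 alone passed the test (difference 0.47, limma adjusted p = 0.0355). Over all genes 0.542% passed, and 0.0221% as higher in TOL mice. Bst2 is dim, with means of 4.62 in INT and 5.09 in TOL mice.

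Among the subunits without a catalytic site, Psmb3 ranged from 9.56 to 10.34 in INT mice (median 9.93) and from 9.94 to 10.26 in TOL mice (median 10.14). The TOL values lay inside the INT range, and 5 of 6 were above the INT mean. The difference was 0.12 (standard error 0.12, limma adjusted p = 0.806, exact permutation p = 0.400). Psmb1, Psmb2 and Psmb4 differed by -0.07, -0.06 and 0.04.

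All 6 genes of the ATPase ring were tested. In TOL mice 3 were higher and 3 lower on average, with a median difference of 0.025. Psmc1 ranged from 7.66 to 8.002 in INT mice (median 7.91) and from 7.96 to 8.23 in TOL mice (median 8.06). All 6 TOL mice lay above the INT mean, but the lowest TOL value was under the highest INT value. The means were 7.88 ± 0.13 in INT and 8.07 ± 0.09 in TOL mice (SD, 6 mice each), a difference of 0.19 (standard error 0.088). Its unadjusted p was 0.0429 and its adjusted p 0.488 from limma, and the exact permutation p of this single gene, not adjusted, was 0.00866. The unadjusted p was 0.05 or less in 4 of the 12 fits with a single mouse left out. Psmc4 ranged from 9.35 to 9.79 in INT mice (median 9.58) and from 8.99 to 9.78 in TOL mice (median 9.39). The TOL mice reached lower, and 5 of 6 lay below the INT mean, with a difference of -0.18 (standard error 0.12, limma adjusted p = 0.684, exact permutation p = 0.197). Without TOL 5 it was -0.26 (limma adjusted p = 0.421). Psmc2, Psmc3, Psmc5 and Psmc6 differed by -0.03, 0.07, 0.13 and -0.02.

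The non-ATPase genes include the scaffold subunits Psmd1 and Psmd2, the ubiquitin receptor Psmd4, the deubiquitinase Psmd14 and the assembly chaperones Psmd5, Psmd9 and Psmd10. Of 14 on the array, 12 were tested. Psmd3 was detected on no array and Psmd9 on at most 4. In TOL mice 10 were higher and 2 lower on average, with a median difference of 0.044 and no gene past the test. Without TOL 5 the median was 0.011. Psmd6, a scaffold subunit of the lid, ranged from 4.64 to 5.07 in INT mice (median 4.83) and from 4.70 to 5.27 in TOL mice (median 5.05). Its values overlapped, with 5 of 6 TOL mice above the INT mean and a difference of 0.19 (standard error 0.10, limma adjusted p = 0.588, exact permutation p = 0.106). The probe is dim, and the difference was 0.070 with no background correction and 0.36 with the RMA-type one. The other tested probe of Psmd6 differed by 0.07.

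Psmd11, another lid subunit, ranged from 6.13 to 6.79 in INT mice (median 6.53) and from 6.53 to 7.05 in TOL mice (median 6.62). All 6 TOL mice were above the INT mean. The difference was 0.16 (standard error 0.12, limma adjusted p = 0.724, exact permutation p = 0.234), and the highest value was that of TOL 5. Psmd2 ranged from 4.80 to 5.31 in INT mice (median 5.004) and from 4.24 to 5.34 in TOL mice (median 4.88). TOL mice held both the lowest and the highest value, and the difference was -0.18 (standard error 0.15, limma adjusted p = 0.740, exact permutation p = 0.325). Its probe is dim and was detected on 11 of 12 arrays. The size of its difference was not stable, at -0.036 with the authors' processed values, -0.060 with no background correction, -0.063 without TOL 9, -0.28 without TOL 5 and -0.47 with the RMA-type correction. Psmd8 had the largest spread of all members, with an SD of 0.37 over the 12 mice. It ranged from 9.84 to 10.69 in INT mice (median 10.38) and from 9.87 to 10.99 in TOL mice (median 10.33), so that the spread lay within both labels, and it differed by 0.04 between them (standard error 0.18, limma adjusted p = 0.964). Psmd14, Psmd4 and Psmd1 differed by 0.19, 0.13 and -0.10, and the other 5 genes by 0.01 to 0.06.

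All 4 activator genes were tested, and 2 were higher and 2 lower on average in TOL mice (median difference -0.0081). Psme1 and Psme2 encode the subunits of the interferon-inducible activator ring. Psme1 ranged from 8.19 to 8.75 in INT mice (median 8.59) and from 8.42 to 8.97 in TOL mice (median 8.67). The low end of the INT range was INT 11 alone, without which the difference was 0.036. With all mice it was 0.11 (standard error 0.11, limma adjusted p = 0.797, exact permutation p = 0.357). Psme2 ranged from 5.76 to 6.21 in INT mice (median 6.14) and from 6.01 to 6.22 in TOL mice (median 6.18), a difference of 0.06 (standard error 0.10, limma adjusted p = 0.888). Psme3 encodes the nuclear activator. It ranged from 7.23 to 7.47 in INT mice (median 7.29) and from 6.79 to 7.54 in TOL mice (median 7.34), with the wider spread in TOL mice and a difference of -0.08 (standard error 0.12, limma adjusted p = 0.882, exact permutation p = 0.545).

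Psme4, which encodes a large single-chain activator of the core, was the exception at the level of probes, and it was singled out after its values were seen. Its brighter probe, which gives the value of the gene, had a mean of 10.97 ± 0.31 in INT mice and 10.89 ± 0.14 in TOL mice (SD, 6 mice each), a difference of -0.08 (limma adjusted p = 0.888). Its dimmer probe was at 4.78, 5.63, 5.41, 5.49, 5.204 and 5.11 in INT mice 3, 4, 5, 7, 9 and 11. In the TOL mice of the same numbers it was at 4.76, 4.40, 4.75, 4.54, 4.55 and 4.51. All 6 TOL mice lay below every INT mouse, although TOL 3 and TOL 5 were close under INT 3. The dimmer probe fell by 0.69 on the log2 scale in TOL mice (standard error 0.12, limma adjusted p = 0.00971), or 1.61-fold. The exact permutation p was 0.00216, the smallest that 6 against 6 mice can give. Of all probes tested, 0.829% passed, with 0.79% lower in TOL mice, and 1.09% had labels that did not overlap. The size depended on the background correction, at -0.25 with none and -1.33 with the RMA-type one (adjusted p = 0.0157 and 0.00952 from limma). The call was lost with the authors' processed values (difference -0.54, adjusted p = 0.392) and with the methods' t-test (adjusted p = 0.0931). The probes did not vary together (r = 0.131 over the 12 mice), so the array gives different accounts of Psme4.

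**Figure D2:**
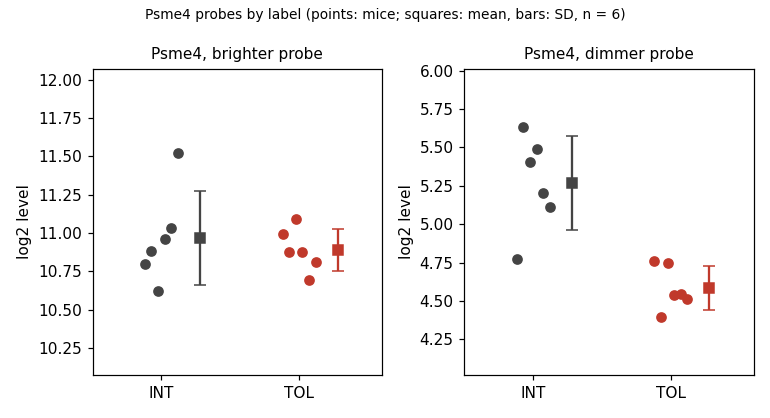
Log2 level (vertical axis) of the brighter and the dimmer tested probe of Psme4 in INT and TOL mice. Small points are mice, squares are means and bars are SDs of 6 mice. The labels overlap on the brighter probe, and on the dimmer one the TOL mice lie between 4.40 and 4.76 and the INT mice between 4.78 and 5.63.

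Several probes of a gene could be compared for 18 of the 34 genes, while 16 had a single tested probe. The 23 further probes gave a median difference of 0.076, with 19 higher and 4 lower on average in TOL mice, where 50.5% of all probes were higher. Without adjustment, limma gave p of 0.05 or below for 6 of all 57 tested probes (10.5%), against 9.91% of all probes. Besides Psme4 and Psmc1 these were probes of Psmb7, Psmc2 and Psmc5, all higher in TOL mice, with adjusted p-values from 0.311 to 0.425. The dimmer Psmc5 probe ranged from 7.74 to 8.41 in INT mice (median 8.24) and from 8.25 to 8.73 in TOL mice (median 8.49), a difference of 0.31 (limma adjusted p = 0.369). All 6 TOL mice lay above its INT mean. The correlation of a further probe with the probe that gives the gene's value had a median of 0.441, from -0.33 for Psmd7 to 0.937 for Psma7. In 12 of the 18 genes all probes gave the same sign of the difference, and in 6 they did not.

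The SD over the 12 mice was larger than the difference between the labels in all genes but Psmc1. This SD had a median of 0.203 over the 34 genes and 0.176 over all genes tested. For each gene the mean of the 12 mice was subtracted, and the median of these deviations over the 34 genes was taken for each mouse. TOL 5 stood highest, at 0.249, with 33 of 34 genes above their mean, all but Psme3. INT 9 followed at 0.119 with 29 genes above, then INT 5 at 0.110 with 23 and TOL 3 at 0.078 with 27. TOL 4, INT 7 and TOL 11 were lowest, at -0.093, -0.095 and -0.091. Both ends of this order held mice of both labels.

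**Figure D3:**
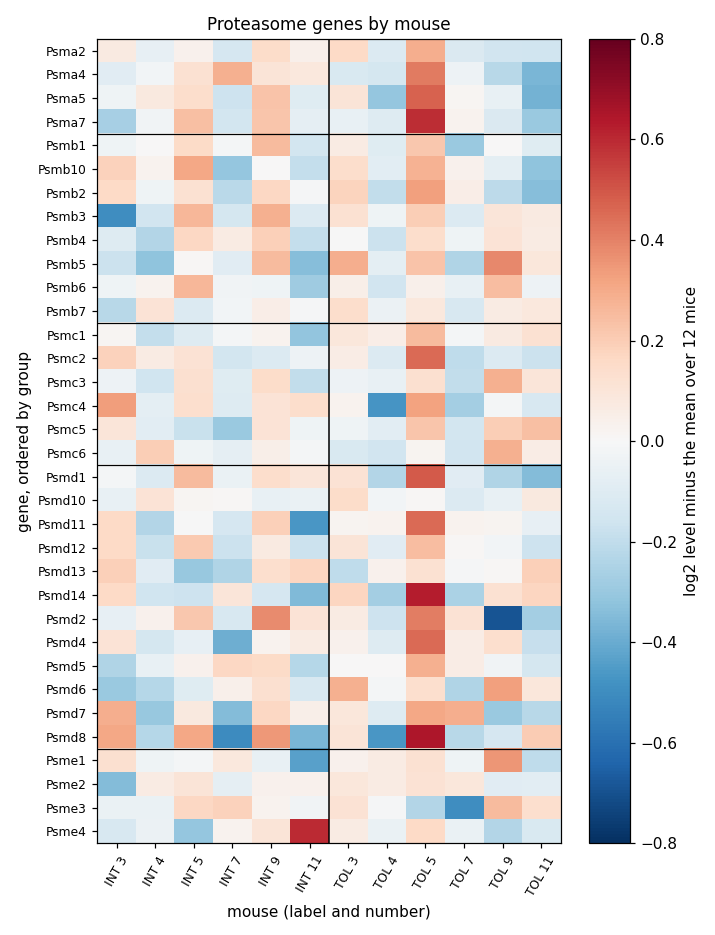
Deviation of each proteasome gene (rows, ordered by group) from its mean over the 12 mice, on the log2 scale (colour), in each mouse (columns, by label and number). The column of TOL 5 is above the mean in 33 of 34 genes.

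The high level in TOL 5 held in every group. Its median deviation was 0.442 in the alpha ring, 0.206 in the beta ring, 0.237 in the ATPase ring, 0.356 in the non-ATPase cap and 0.119 in the activators. All 12 core genes and all 18 cap genes were above their mean in this mouse. Over all 9034 genes the median deviation of TOL 5 was 0.012. Among the 882 genes with a mean level of at least 9 it was 0.0042, against 0.290 for the 21 proteasome genes among them. TOL 11 differed by group, at -0.332 in the alpha ring and 0.014 in the beta ring. Mice numbered 4, 7 and 11 lay between -0.058 and -0.095 under both labels, and those numbered 3, 5 and 9 between -0.033 and 0.249. The labels do not say whether a number stands for anything shared, and this was noticed after the values were seen.

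**Figure D4:**
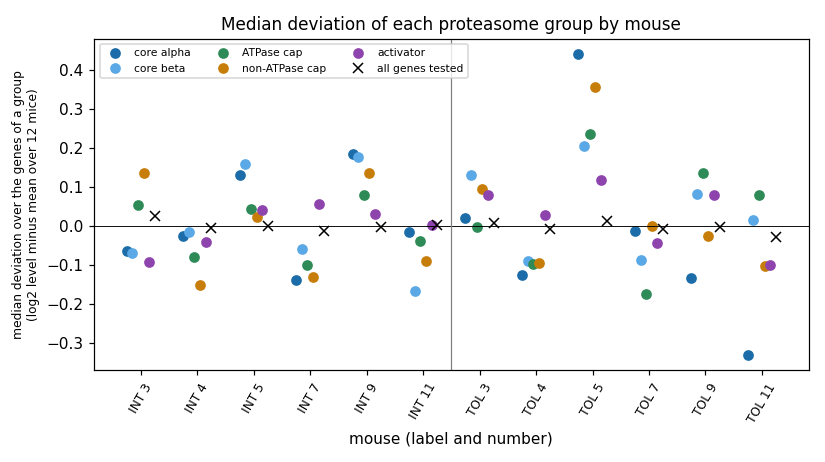
Median deviation from the gene mean, on the log2 scale (vertical axis), of the genes of each proteasome group (coloured points) and of all genes tested (crosses) in each of the 12 mice. TOL 5 is above 0 in every group, from 0.119 in the activators to 0.442 in the alpha ring.

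Proteasome genes varied together across the mice, as a description with no test. Pearson's r over the 12 mice had a median of 0.275 over the 561 pairs of members, and 28.7% of the pairs were above 0.5. Over all pairs of tested genes the median was 0.0035, with 7.16% above 0.5. All pairs share the same 12 arrays, and the pairs were not matched for level. With each label centred on its own mean the median was 0.305, and without TOL 5 it was 0.151. By group, with TOL 5 included, the median was highest in the alpha ring (0.712, 4 genes). The beta ring (0.474), the ATPase ring (0.311) and the non-ATPase cap (0.302) followed. The 4 activators did not vary together, with a median of -0.242.

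The closest pair was Psma2 and Psmb2 (r = 0.904), one from each type of ring. Psmb5 and Psmd6 (0.900), Psma2 and Psmd1 (0.892), Psmb10 and Psmd12 (0.889) and Psma5 and Psmb2 (0.882) came next, and the lowest pair was Psmb6 and Psme4 (-0.742). Against the median of the other members, r was 0.879 for Psma5, 0.855 for Psma7, 0.836 for Psmd1, 0.826 for Psma2 and 0.804 for Psmd12. Psmd13 and Psme3 were at the other end, at -0.098 and -0.123. The catalytic genes Psmb5, Psmb6 and Psmb7 lay between these ends, at 0.548, 0.389 and 0.223.

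Genes that supply the proteasome or deliver its substrates were taken from a list of ubiquitin-activating and ubiquitin-conjugating enzymes, ligases, assembly factors, deubiquitinases, shuttle proteins and regulators. Of 45 listed names, aliases included, 30 were on the array and 26 were tested. In TOL mice 16 were higher and 10 lower on average (median difference 0.018). None was called by limma at an adjusted p under 0.05 (0.542% of all genes), and none had an unadjusted p of 0.05 or below (8.41%). Nfe2l1, which encodes a factor that raises proteasome gene transcription when proteasome activity is short, ranged from 9.84 to 10.26 in INT mice (median 10.02) and from 9.98 to 10.22 in TOL mice (median 10.08). It differed by 0.05 (standard error 0.09, limma adjusted p = 0.897). Pomp, the assembly factor of the core, ranged from 10.45 to 10.77 in INT mice (median 10.64) and from 10.41 to 10.70 in TOL mice (median 10.59). It differed by -0.07 (standard error 0.08, limma adjusted p = 0.841), and the labels overlapped for both genes.

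Among the muscle ubiquitin ligase genes on the list, Trim63 and Fbxo32 had larger differences, and neither passed the test. The ligase genes Fbxo30 and Stub1 differed by -0.14 and 0.21 (limma adjusted p = 0.841 and 0.602). Trim63 ranged from 6.08 to 6.91 in INT mice (median 6.44) and from 5.85 to 9.76 in TOL mice (median 6.77), and its highest value was that of TOL 11. Fbxo32 ranged from 8.64 to 10.29 in INT mice (median 9.31) and from 8.49 to 9.98 in TOL mice (median 8.71). The differences of Trim63 and Fbxo32 were 0.79 and -0.46 (limma adjusted p = 0.604 and 0.602). Without TOL 11 that of Trim63 was 0.28, and that of Fbxo32 ran from -0.67 without TOL 11 to -0.28 without INT 3. Across the 12 mice, the genes that followed the median of the proteasome genes most closely were Rad23b, a shuttle for ubiquitinated proteins (r = 0.904), Nploc4, a cofactor of the segregase Vcp (0.80), Psmg3, a core assembly chaperone (0.788), and Pomp (0.701). Without TOL 5 these were 0.799, 0.85, 0.875 and 0.73. Nfe2l1 did not follow it at the RNA level (0.111, and 0.091 without TOL 5). Nfe2l2 ran in the opposite direction (-0.497, and -0.583 without TOL 5). These are descriptions over 12 arrays that all pairs share.

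Markers of other cells and states were looked at beside these values. All 7 slow-fibre genes were lower on average in TOL mice (median difference -0.76), where 48.9% of all genes were higher. In limma, 6 of the 7 had p under 0.05 before adjustment and 0 after it (adjusted p from 0.401 to 0.679). The labels overlapped in each of the 7 genes. The median level of the 7 was 9.75 to 12.2 in INT mice and 8.27 to 11.01 in TOL mice. Of 8 tested targets of heat shock factor 1, 7 were higher on average in TOL mice (median difference 0.62), where 48.9% of all genes were. None of the 8 passed limma at an adjusted p under 0.05 (0.542% of all genes). Their median level was 7.68 to 8.43 in INT mice and 6.98 to 10.55 in TOL mice. Hspa1a was at 10.04, 8.88 and 12.41 in TOL 4, 7 and 11, but at 4.68 to 5.29 in TOL 3, 5 and 9. In INT mice it was at 4.64 to 6.26. Dnajb1 split the TOL mice the same way, at 10.73, 10.25 and 9.77 against 6.31 to 6.49. Hspa1b, Hsp90aa1 and Hsph1 were also higher in each of TOL 4, 7 and 11 than in TOL 3, 5 and 9. For Hsph1 the gap was narrow, with 9.24 in TOL 4 and 9.11 in TOL 5. Hspb1, Hspa8 and Bag3 did not split this way, and Hspb1 was at 10.55 in TOL 5 and 9.33 in TOL 7. Macrophage, endothelial and adipocyte genes had median differences of 0.054, 0.056 and 0.075 over 5, 5 and 3 tested genes, and 2 erythrocyte genes had 0.31. Of 5 lymphocyte markers on the array, 0 passed the detection filter. The part of these cells and states in the proteasome values was not tested.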

How the data were processed

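RNA from the gastrocnemius of 12 mice was measured on 12 Illumina MouseWG-6 v2 arrays. The authors deposited, from GenomeStudio (version not given in the sources used here), for each of 45281 probes the intensity on a linear scale, neither background subtracted nor normalized, with a detection p-value. The authors' processed intensity table was used as an alternative only. Their methods name RMA normalization, log2 transformation, ANOVA and a t-test.

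From the signals, neqc of limma 3.58.1 (R 4.3.3) used the detection p-values to correct background and added 16 before quantile normalization and log2. The added value shrinks changes of dim probes. TOL was tested against INT (lmFit, then eBayes with trend) for probes detected at p under 0.05 on 6 or more arrays, with Benjamini-Hochberg adjustment over 15570 probes. A gene's value was its tested probe with the highest mean. For single values, an exact permutation test (two-sided, 6 against 6 mice) was added. Symbols came from the platform annotation. The mice are the replicates, and their number limits the precision.

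The members and the gene lists were chosen with earlier results of these data known. Given in full were, in each group, the 2 genes with the smallest unadjusted p, every member with an unadjusted p up to 0.05, the catalytic genes, Psme1 and Psme2, the 2 genes with the largest SD, and Nfe2l1 and Pomp. The values of Psme4, Psmc5, Trim63, Fbxo32, Rad23b, Nploc4, Psmg3, the single heat shock factor 1 targets and TOL 5 were named after they were seen. The limma fit and its adjustment were checked on simulated log2 values. The slide was not used as a block, because it could be read for 1 array only.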

Additional observations from a re-analysis of the deposited data

Results flagged for a closer look

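Within each label, the most extreme mouse was compared with the range of the 6 mice for each tested gene. Of 72 pairs of gene and label, 3 (4.17%) had a mouse that stood apart from the others, and chance gives about 1 in 20.

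Psma7, an alpha ring gene, was at 9.88 in TOL 5, and the nearest TOL mouse was at 9.32, a gap of 0.634 of the range. Psmd11, a lid gene, was at 7.05 in TOL 5, against 6.63 in the nearest TOL mouse, a gap of 0.816 of the range. Both belong to the mouse in which 33 of 34 proteasome genes were above their mean. Psme1, an activator gene, was at 8.19 in INT 11, and the nearest INT mouse was at 8.56, a gap of 0.673 of the range. This one was a low value in the mouse whose proteasome genes had a median deviation of -0.062.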

How the results depend on the processing

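None of the 34 proteasome genes passed an adjusted p under 0.05 in the alternatives run, nor did the supply and delivery genes. The median differences of the groups were small and, with 1 mouse left out, changed sign for all groups together, the alpha ring, the beta ring and the activators. In those fits they ran from -0.0056 to 0.060 for all 34 genes. By group they ran from -0.12 to 0.0097 (alpha ring), -0.013 to 0.068 (beta ring), 0.0068 to 0.065 (ATPase ring), 0.0091 to 0.086 (non-ATPase cap) and -0.050 to 0.034 (activators). With the mean of a gene's probes the ATPase ring was at 0.096. The activators were at 0.0023 with the authors' processed values and 0.00099 with the RMA-type correction. The beta ring was at -2.6e-05 with median scaling. Over all probes 129 were called, 37 with the authors' processed values, 77 with detection on all 12 arrays, 52 with the methods' t-test, and 78 (without INT 7) to 152 (without INT 3) with 1 mouse left out, 79 without TOL 3. The cause was not tested.

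At an unadjusted p of 0.05 or less, 0 to 3 genes were higher in TOL mice. The mean of all probes of a gene called Psmb7, Psmc1 and Psmc5 as higher and Psme4 as lower (-0.38, adjusted p = 0.160 from limma). Psma4, Psmc4 and Psmd1 were lower without TOL 5. Psmb5, Psmc1 and Psmd6 were higher without INT 9 or TOL 7. Median scaling called Psmd6 in place of Psmc1. The dimmer Psme4 probe kept its call in the 12 fits without 1 mouse (-0.79 to -0.61) and lost it with the processed values (-0.54, adjusted p = 0.392) and with the methods' t-test (-0.69, adjusted p = 0.0931). It was at -0.25 with no background correction and -1.33 with the RMA-type correction.

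Small differences turned sign. With the mean of a gene's probes Psma5 was at 0.013 and Psmb10 at 0.0057, and with array weights Psmb10 was at 0.033. With 1 mouse left out, Psmb10 ran from -0.073 to 0.053, Psma5 from -0.15 to 0.020, Psmb6 from -0.025 to 0.084, Psme2 from -0.00045 to 0.089, Psmd8 from -0.081 to 0.14 and Psme3 from -0.14 to 0.011. The deviation of TOL 5 was 0.204 to 0.264 over the settings, and the median correlation of the members 0.15 (without TOL 5) to 0.329 with 1 mouse left out.

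The mouse numbers occur in both labels, but deviations of same-numbered mice correlated at only -0.00717 to 0.148, so they were not taken as pairs. With mouse number as a replicate block, 124 probes and 0 proteasome genes were called, and 0 genes had an unadjusted p of 0.05 or less. Dim probes, such as those of Psmd2 and the dimmer one of Psme4, sit close to background, which limits their differences. Psmd2 had no value under detection on all 12 arrays.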
